A study of Rattus norvegicus with 14 samples.

Results

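The genes described here encode subunits of the mitochondrial respiratory chain and of the ATP synthase, read from array profiles of rat liver and of early liver lesions. The rule for members reads gene symbols and no measured value. A gene was taken where its symbol was the only one of a probe set in the platform annotation and belonged to the subunits Ndufa, Ndufb, Ndufc, Ndufs or Ndufv followed by a number, to Sdha, Sdhb, Sdhc and Sdhd, to the Uqcr family, to Cox4 through Cox8 or to the Atp5 family. This gave 76 of the 14497 genes tested, with 32 in complex I, 4 in complex II, 7 in complex III, 17 in complex IV and 16 in complex V. Ndufa4, first described as a complex I subunit and since placed in complex IV, was counted with complex IV. Ndufs6-ps1 and Cox6c-ps1 are pseudogene symbols in the rat assembly table and were kept because the rule takes them, so their signal may come from the parent gene. No filter on low values was used, and all 76 members entered every test. The subunits encoded by mitochondrial DNA were not analysed here.

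Complexes I, III and IV sit in the inner mitochondrial membrane, pass electrons from NADH to oxygen and pump protons as they do so. Complex II, which is also an enzyme of the citric acid cycle, feeds electrons from succinate into the same chain without pumping. Complex V, the ATP synthase, lets the protons return and makes ATP from ADP, and hepatocytes, which are rich in mitochondria, depend on this chain for gluconeogenesis, urea synthesis and fatty acid oxidation.

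RNA came from formalin-fixed, paraffin-embedded liver of male F344 rats, an inbred strain, after laser capture of chosen regions, and was hybridised to Affymetrix Rat Gene ST 1.0 arrays. Normal liver came from 3 unmanipulated rats. AAF/PH liver came from 3 rats given a 2.5 mg pellet of 2-acetylaminofluorene (AAF, which blocks hepatocyte division) on day 1, with release over 14 days, then partial hepatectomy (PH) on day 7, and killed on day 14; the captured regions held oval cells, the small progenitor-like cells that this protocol calls out. Foci came from rats on the Solt-Farber protocol: diethylnitrosamine, a liver carcinogen, at 200 mg/kg on day 1, the AAF pellet on day 14, then hepatectomy on day 21, when a second pellet was placed that released placebo (3 rats) or rapamycin, an inhibitor of the kinase mTOR, at 2.5 mg/kg/day (3 rats) for 21 days. These rats were killed on day 70, well after the second pellet had run out, and persistent lesions were captured that stained for the placental glutathione S-transferase GSTP. Both foci groups therefore carried the carcinogen, AAF and hepatectomy, as normal liver did not, and no regenerated liver outside the lesions was among the groups used here. The labels number the animals as separate biological replicates.

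The table held 14 arrays of 12 animals, because rapamycin animal 3 was run on 3 arrays, which were averaged into 1 value. This animal stood apart. The interquartile range of log2 intensity over all genes, a measure of how far an array spreads its genes, was 1.61 in rapamycin animal 3 and 1.98 to 2.80 in the other 11 animals, with AAF/PH liver at 1.98 to 2.26, placebo foci at 2.14 to 2.61 and normal liver at 2.36 to 2.80. Rapamycin animal 3 had the lowest intensity of the 12 animals in 62 of the 76 members, and its 3 arrays, which included a new laser capture, differed by a median of 0.44 on the log2 scale over the members. The counts of members called and the medians of the complexes are given with and without it, as are the members called in rapamycin foci. The median intensity of the members was 116 in rapamycin animal 3, 175 to 247 in AAF/PH liver, 275 to 392 in placebo foci, 371 and 419 in rapamycin animals 1 and 2, and 414 to 565 in normal liver. In the plot of member level against spread, animals whose arrays spread less tended to have lower members. Of the members called, those that lost the call or turned in sign when arrays were scaled to a common interquartile range are named with the counts of each comparison against normal liver. Of the other members, only counts below normal liver are given there.

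**Figure D1:**
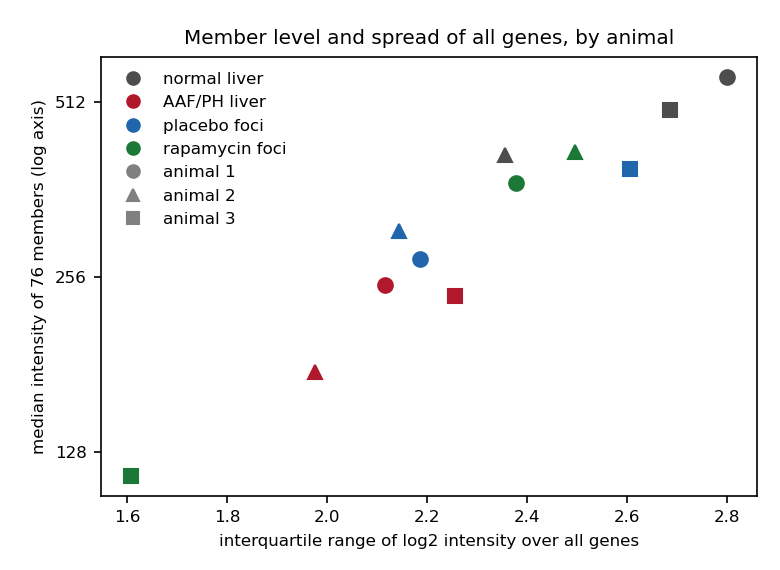
Median intensity of the 76 members (y axis, log scale, array intensity units) against the interquartile range of log2 intensity over all 14497 genes (x axis) in each of 12 animals, with colour for the group and symbol for the animal number. Rapamycin animal 3 lies lowest on both axes at 1.61 and 116, and normal animal 1 highest at 2.80 and 565.

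The first comparison asked how the chain's genes stood in liver undergoing an oval cell response, AAF/PH liver against normal liver. Subunit genes of all 5 complexes were lower. In the limma test across all genes, 44 of the 76 members fell and 0 rose at an adjusted p under 0.05, where 20% of all genes were called, 12.5% as lower and 7.54% as higher. The median log2 difference of the members was -1.07, and -0.31 with arrays scaled to a common interquartile range. That of all genes was 0.12, and 0.003 with that scaling. The median member was brighter than the median gene, at 414 to 565 in normal liver against 26.7 to 27.8. Of the 76 members 71 were below normal liver on average, and 54 with arrays scaled to a common interquartile range. In 66 members every AAF/PH animal lay below every normal animal, and in 3 above (Atp5if1, Cox6b2 and Cox8b), where 49.6% of all genes had groups that did not overlap, 22.2% as lower and 27.4% as higher. The count of members called was 16 without normal animal 1, 26 without normal animal 3 and 16 without AAF/PH animal 2, each of which leaves 11 animals in the fit, where 10.7%, 12.3% and 12.4% of all genes were called. In bulk samples, fewer cells of a type and less RNA per cell cannot be told apart.

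The size of the fall differed between the complexes by description, and no test was made between them, since subunits of 1 complex are not replicates. The median log2 difference was -1.59 for complex II, with 4 of 4 members called lower, -1.19 for complex I with 22 of 32, -1.06 for complex III with 4 of 7, -0.97 for complex V with 9 of 16 and -0.78 for complex IV with 5 of 17. Complex II had the lowest median of the 5 complexes in each AAF/PH animal, at -1.35, -1.82 and -1.36 relative to the mean of normal liver, and complex IV the highest, at -0.66, -0.94 and -0.74. Complex IV stood highest with 5 paralogues of other tissues and a pseudogene among its 17 members; without these 6 its group median was -1.23, below that of complex I. When each array was scaled to a common interquartile range, complex II stayed at -0.88 and complex I at -0.64, while complexes III, IV and V came to -0.12, -0.04 and -0.13. In that setting 24 of the 44 members remained called lower. The 20 that lost the call were Ndufa5, Ndufa11, Ndufb3, Ndufb8, Ndufb9 and Ndufs6-ps1 in complex I, Uqcrb, Uqcrh and Uqcrq in complex III, Cox6c, Cox7b, Cox7c and Cox8a in complex IV, and Atp5f1c, Atp5f1e, Atp5mc1, Atp5mc3, Atp5mk, Atp5pd and Atp5pf in complex V. There 40 of the 44 remained below 0, Uqcrq, Cox8a, Ndufa11 and Atp5mc3 turned above 0, and 2 other members, Atp5if1 and Uqcr11, were called higher, where 8.95% of all genes were lower and 9.82% higher. Without rapamycin animal 3 in the fit, 66 members were called lower and 1, Atp5if1, higher, where 19.7% and 16.3% of all genes were called.

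**Figure D2:**
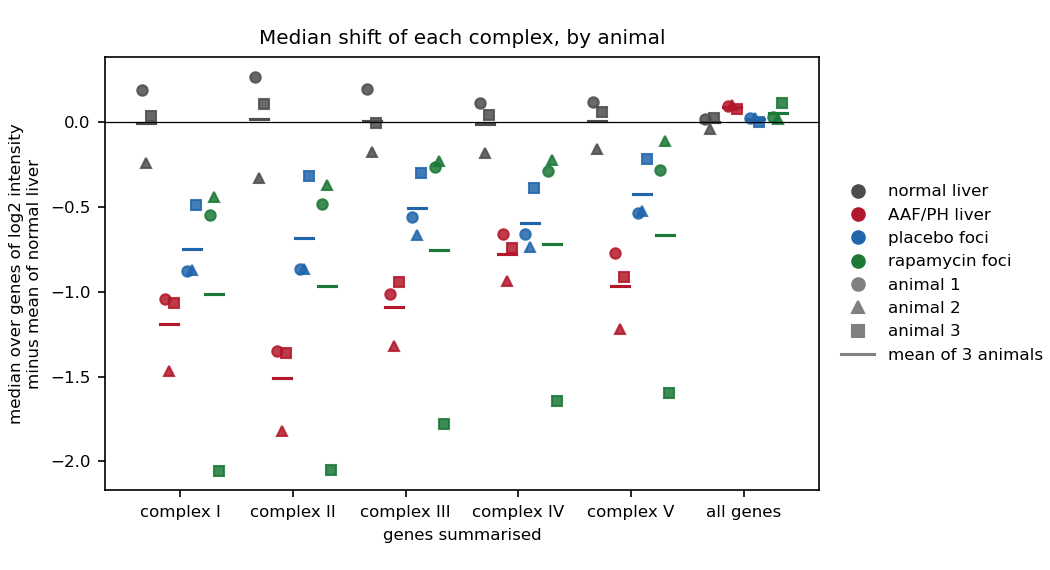
For each animal, the median over the genes of a complex (or over all genes, right) of log2 intensity minus the mean of normal liver; colour gives the group, symbol the animal number and the bar the mean of 3 animals. All 3 AAF/PH animals lie between -0.66 and -1.82 in every complex while all genes stay between 0.08 and 0.10, and rapamycin animal 3 lies at -1.60 or lower in every complex; scaling arrays to a common interquartile range turned the group medians of complexes III and V in placebo foci and of complex V in rapamycin foci above 0.

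The promoters of 66 members were found in RefSeq sequence of the rat assembly GRCr8, as 300 bases in the gene's direction, 250 before the annotated start and 50 after it. They were searched on both strands for letters bound by factors that are known to drive these genes. The NRF1 motif GCATGCGC, whose letters nearly repeat on the other strand, was in 9 of the 66 (13.6%) and in 2.47% of 33469 rat promoters; the ETS core CCGGAAG, read by GABPA, was in 20 (30.3%) and in 8.75%. The YY1 motif AAGATGGCG was in 8 (12.1%) and in 1.73%, and the motif TCAAGGTCA of the oestrogen-related receptors was in 2 (3.03%), Atp5mc3 and Sdhd, and in 0.433%. These matches describe letters, not sites of binding. The median difference in AAF/PH liver was -1.10 over the 20 members with an ETS match and -1.14 over the 46 without, -0.86 with and -1.15 without an NRF1 match, -1.05 with and -1.16 without a YY1 match, and -1.43 with and -1.10 without a match for the oestrogen-related receptors. No test was made of these. The 4 promoters printed here are those of Ndufv3 and Atp5if1, the 2 members called in placebo foci, of Sdhd, the member of complex II with the largest fall by the test, and of Ndufa6, a called member whose window holds 3 of the 4 motifs; Ndufa6 was picked after its values were seen. Capitals mark motif matches.
Sdhd (GRCr8 chr8:59850592-59850891, minus strand): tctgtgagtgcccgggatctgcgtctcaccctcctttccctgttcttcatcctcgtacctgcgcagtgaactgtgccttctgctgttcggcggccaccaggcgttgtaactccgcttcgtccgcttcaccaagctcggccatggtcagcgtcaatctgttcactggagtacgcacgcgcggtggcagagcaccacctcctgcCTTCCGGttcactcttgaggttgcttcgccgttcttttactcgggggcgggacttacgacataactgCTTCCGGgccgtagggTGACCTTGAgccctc
Ndufa6 (GRCr8 chr7:115750268-115750567, minus strand): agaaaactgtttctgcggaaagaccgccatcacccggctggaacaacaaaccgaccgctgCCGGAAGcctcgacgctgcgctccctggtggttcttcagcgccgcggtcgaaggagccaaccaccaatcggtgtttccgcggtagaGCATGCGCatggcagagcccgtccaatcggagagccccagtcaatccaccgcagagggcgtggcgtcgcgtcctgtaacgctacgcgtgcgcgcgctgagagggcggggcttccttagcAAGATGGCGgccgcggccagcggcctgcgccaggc
Ndufv3 (GRCr8 chr20:9613536-9613835, plus strand): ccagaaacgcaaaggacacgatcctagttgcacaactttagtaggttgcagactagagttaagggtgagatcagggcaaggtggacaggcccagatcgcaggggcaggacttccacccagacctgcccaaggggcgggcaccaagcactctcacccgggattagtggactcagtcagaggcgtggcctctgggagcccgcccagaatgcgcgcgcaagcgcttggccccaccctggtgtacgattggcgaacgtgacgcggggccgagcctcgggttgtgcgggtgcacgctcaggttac
Atp5if1 (GRCr8 chr5:150026628-150026927, minus strand): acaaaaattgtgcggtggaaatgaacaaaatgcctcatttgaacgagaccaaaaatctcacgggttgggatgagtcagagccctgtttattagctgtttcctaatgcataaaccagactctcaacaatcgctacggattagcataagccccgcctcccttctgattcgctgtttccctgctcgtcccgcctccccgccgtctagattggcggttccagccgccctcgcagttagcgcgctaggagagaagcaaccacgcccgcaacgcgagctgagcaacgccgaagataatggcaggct
The window of Sdhd holds the reverse complement of the ETS core at 2 places and that of the oestrogen-related receptor motif downstream of the start. The window of Ndufa6 holds the ETS, NRF1 and YY1 letters in that order. None of the 4 motifs occurs in these windows of Ndufv3 and Atp5if1.

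Complex I takes electrons from NADH, and its members are given by module. In the NADH-oxidizing module, 4 of 7 members fell in AAF/PH liver (Ndufv3, Ndufv2, Ndufa12 and Ndufa2), with a module median of -1.39. Ndufv3, an accessory subunit at the NADH-oxidizing tip, had the largest fall of the complex by the test. Its intensities were 1064, 791 and 951 in normal liver, 279, 219 and 245 in AAF/PH liver, 385, 361 and 435 in placebo foci and 540, 561 and 253 in rapamycin foci. Every animal of the other 3 groups lay below every normal animal, and AAF/PH liver lay lowest apart from rapamycin animal 3. The log2 difference in AAF/PH liver was -1.91 ± 0.26 (SE, n = 3 per group), a 3.77-fold lower level, with a limma adjusted p of 0.00014, and the call held in every setting run. A second probe set of Ndufv3 gave -0.82, so the size of the fall depended on the probe set while the direction did not. Ndufv1, which binds NADH and the flavin, was at -0.52 (adjusted p = 0.209), and Ndufs1, which carries iron-sulfur clusters, at -0.81 (adjusted p = 0.108).

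In the quinone-binding module of complex I, 3 of 4 members fell, Ndufs3, Ndufs8 and Ndufa5, at -1.49, -1.27 and -1.01, and Ndufs7, which carries the last iron-sulfur cluster before the quinone, was at -0.43 (adjusted p = 0.151). Among the 20 members of the membrane arm and other accessory subunits, 14 fell. At the probe sets used, Ndufb6 had the largest difference of all 76 members, -2.11 (adjusted p = 0.00606), followed in this group by Ndufa1 at -1.75, Ndufs5 at -1.75 and Ndufb2 at -1.61. Those not called ran from -1.04 in Ndufa3 (adjusted p = 0.0941) to -0.51 in Ndufa8 (adjusted p = 0.124). Second probe sets gave -1.23 for Ndufs5, -1.39 for Ndufb4 (-0.75 at the one used) and -2.27 for Ndufs6-ps1 (-0.94 at the one used). All 32 members of complex I were below normal liver on average, and in 31 the groups did not overlap.

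Ndufa10, an accessory subunit at the foot of the membrane arm, was near the normal level in placebo foci. Its intensities were 135, 122 and 128 in normal liver, 51.6, 48.4 and 72.9 in AAF/PH liver, 157, 127 and 108 in placebo foci and 101, 119 and 60.3 in rapamycin foci. Placebo foci overlapped normal liver, and AAF/PH liver lay below both. The difference was -1.18 ± 0.25 in AAF/PH liver (limma adjusted p = 0.00387) and 0.01 ± 0.25 in placebo foci (adjusted p = 0.985). Scaling did not change the call in AAF/PH liver.

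Complex II passes electrons from succinate to the quinone pool, and all 4 of its subunits fell in AAF/PH liver. Sdhd, which anchors the enzyme in the membrane, was at 539, 321 and 489 in normal liver, 139, 130 and 147 in AAF/PH liver, 238, 243 and 275 in placebo foci and 289, 316 and 103 in rapamycin foci. The AAF/PH animals lay within a narrow band below all placebo animals, and all of those lay below all normal animals. The difference in AAF/PH liver was -1.67 ± 0.33 (limma adjusted p = 0.00284), 3.17-fold lower, and the call held in every setting run. The flavin subunit Sdha was at -1.61, the other anchor Sdhc at -1.57 and the iron-sulfur subunit Sdhb at -1.25, each without overlap between the groups. All 4 were still called when arrays were scaled to a common interquartile range, and likewise with that range as a covariate.

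Complex III carries electrons from the quinone pool to cytochrome c. Uqcrb, Uqcrfs1, Uqcrh and Uqcrq fell, at -1.42, -1.31, -1.06 and -1.04. A second probe set of Uqcrb gave -0.48, and Uqcrb was called in 7 of 20 settings and below 0 in all 20. Uqcrq, a small membrane subunit, had the largest fall by the test, at 2197, 1867 and 2207 in normal liver, 1151, 835 and 1085 in AAF/PH liver, 1301, 1274 and 1448 in placebo foci and 1738, 1777 and 875 in rapamycin foci. Each AAF/PH animal was below each normal animal (difference -1.04 ± 0.24, limma adjusted p = 0.00793), but the sign turned to 0.14 with arrays scaled to a common interquartile range. Uqcrfs1, the Rieske iron-sulfur protein that takes the first electron from the quinol, was at 346, 251 and 282 in normal liver, 119, 109 and 125 in AAF/PH liver, 131, 138 and 173 in placebo foci and 176, 205 and 65.8 in rapamycin foci. Placebo and AAF/PH animals were all below the normal range. The core proteins Uqcrc1 and Uqcrc2 were at -0.62 (adjusted p = 0.192) and -1.15 (adjusted p = 0.0644), and the peripheral subunit Uqcr11 was at -0.25 (adjusted p = 0.508), the smallest difference of the complex.

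Complex IV, cytochrome c oxidase, passes electrons to oxygen, and its family holds paralogues that other tissues use. Of the 11 members left without those paralogues and the pseudogene, all were below normal liver on average, 5 fell (Ndufa4, Cox7c, Cox6c, Cox7b and Cox8a), and the median was -1.23. Ndufa4 was at 1720, 1095 and 1486 in normal liver, 403, 296 and 397 in AAF/PH liver, 477, 472 and 925 in placebo foci and 895, 1036 and 223 in rapamycin foci. All AAF/PH animals lay below all placebo animals, and placebo animal 3 stood above the other two. The difference in AAF/PH liver was -1.96 ± 0.45 (limma adjusted p = 0.00701), 3.90-fold lower, and it was called in every setting run.

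The paralogue pairs of complex IV are given side by side, with no test between the forms of a pair. The forms of other tissues had intensities of 10.1 to 69.4, where the median gene of an animal was at 26.7 to 29.7. Cox6a2 lay above that median gene in every animal, and the other forms lay below it. Cox4i1, the common form of the subunit that senses ATP, was at 990, 624 and 909 in normal liver, 433, 356 and 483 in AAF/PH liver, 454, 439 and 569 in placebo foci and 608, 707 and 205 in rapamycin foci. Its AAF/PH difference of -0.97 missed the threshold (adjusted p = 0.0694), although the groups did not overlap. Cox4i2, known for lung and low oxygen, ranged from 10.1 to 16.5 over the 12 animals with no order between groups, at -0.01 (adjusted p = 0.976).

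Cox6a1, the liver form, was at 2472, 2021 and 2471 in normal liver and 1721, 1330 and 1755 in AAF/PH liver, 1716, 1533 and 2004 in placebo foci and 1931, 1991 and 1016 in rapamycin foci. Its difference in AAF/PH liver was -0.54 (adjusted p = 0.126) and turned to 0.69 with arrays scaled to a common interquartile range. Cox6a2, the heart and muscle form, ranged from 37.7 to 69.4, highest in rapamycin animal 3. Cox6b2, a testis form, had the largest difference above 0 in complex IV, 0.39 in AAF/PH liver (adjusted p = 0.157), from 17.1, 19.2 and 19.3 in normal liver to 24.7, 27.4 and 21.2. Its foci were at 21.5, 26.1 and 22.0 with placebo and 16.3, 22.0 and 25.8 with rapamycin. None of these paralogues passed the test.

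Cox7a2, the liver form of a subunit at the dimer contact, was at 2145, 1336 and 1779 in normal liver, 757, 532 and 846 in AAF/PH liver, 825, 635 and 998 in placebo foci and 1077, 1258 and 220 in rapamycin foci, a difference of -1.30 in AAF/PH liver (adjusted p = 0.0707). Cox7a2l, a related protein known for joining complexes III and IV, was at 496, 426 and 484 in normal liver, 355, 322 and 407 in AAF/PH liver, 486, 445 and 525 in placebo foci and 443, 481 and 150 in rapamycin foci. Its differences were -0.38 in AAF/PH liver (adjusted p = 0.413), turning to 0.40 with arrays scaled to a common interquartile range, and 0.05 in placebo foci (adjusted p = 0.950), where placebo animals lay within and above the normal range. Cox7b was at 1700, 1208 and 1383 in normal liver, 645, 360 and 567 in AAF/PH liver, 553, 649 and 1038 in placebo foci and 1075, 1164 and 233 in rapamycin foci, and fell by 1.48 in AAF/PH liver on the log2 scale (adjusted p = 0.0400). Of these 3, Cox7b alone passed, and it missed the threshold when any 1 animal of either group was left out.

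Cox8a, the common form of the smallest subunit, fell by 1.02 in AAF/PH liver on the log2 scale (adjusted p = 0.0234), with a difference of 0.10 once arrays were scaled to a common interquartile range. Its intensities were 1842, 1404 and 1881 in normal liver, 900, 727 and 887 in AAF/PH liver, 1046, 1010 and 1293 in placebo foci and 1389, 1447 and 567 in rapamycin foci. The call was lost without normal animal 1, normal animal 3 or any 1 of the AAF/PH animals. Cox8b, known from heart and muscle, was at 10.5, 11.1 and 10.9 in normal liver, 14.0, 12.8 and 14.9 in AAF/PH liver, 12.6, 12.8 and 11.4 in placebo foci and 14.6, 14.5 and 15.8 in rapamycin foci. It lay above normal liver in all 9 other animals, by 0.36 in AAF/PH liver (adjusted p = 0.107). Cox8c, a testis form, ranged from 11.6 to 27.0, with rapamycin animal 3 highest, and was at 0.20 in AAF/PH liver (adjusted p = 0.598). The 5 paralogues of other tissues together had a median of 0.20 in AAF/PH liver, 0.17 in placebo foci and 0.28 in rapamycin foci, with 0 called in any by limma, and 0.035 in rapamycin foci without rapamycin animal 3.

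Complex V, the ATP synthase, is built of a catalytic head, a rotating ring, a stalk and membrane subunits. In AAF/PH liver 2 of 5 members of the catalytic head fell, Atp5f1e and Atp5f1c, at -1.19 and -0.94, and the catalytic beta subunit Atp5f1b was at -0.65 (adjusted p = 0.109). In the c ring 2 of 3 fell, Atp5mc3 and Atp5mc1, whose genes encode the same mature protein, in the peripheral stalk 3 of 4 (Atp5po, Atp5pd and Atp5pf), and among the membrane accessory subunits 2 of 3 (Atp5mg and Atp5mk, at -1.82 and -1.68). Atp5mc1 was at 601, 518 and 600 in normal liver, 386, 200 and 247 in AAF/PH liver, 550, 474 and 493 in placebo foci and 495, 567 and 281 in rapamycin foci. Placebo foci overlapped normal liver for Atp5mc1 (difference -0.18, adjusted p = 0.755), and AAF/PH liver did not (-1.10 ± 0.27, limma adjusted p = 0.00964). That call was lost without AAF/PH animal 2 and with arrays scaled to a common interquartile range.

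**Figure D3:**
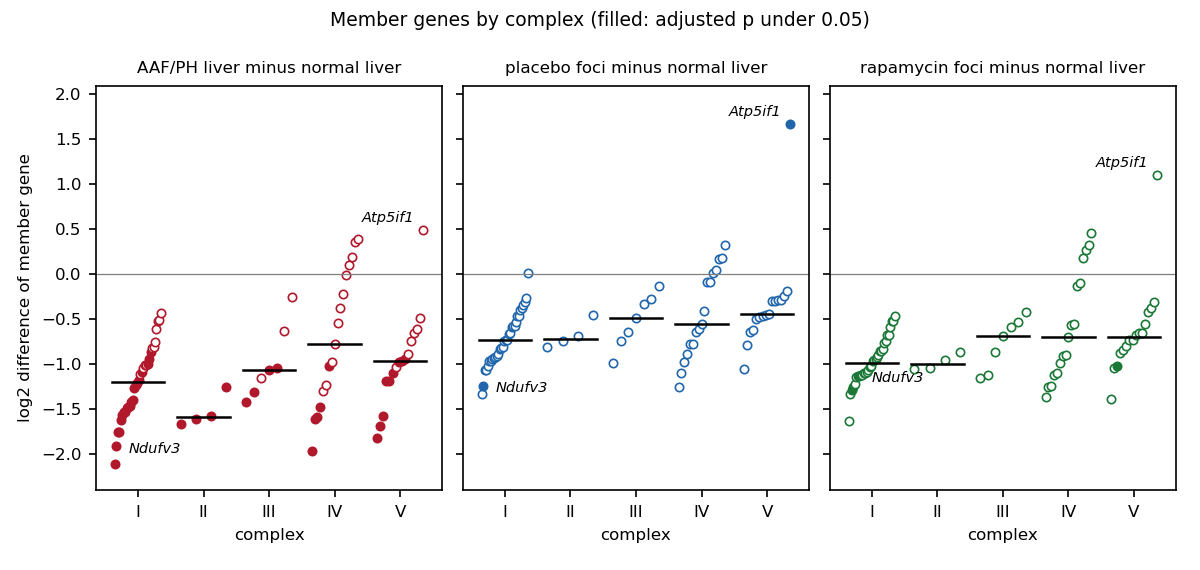
Log2 difference from normal liver of each member gene (circles, sorted within a complex; filled at a limma adjusted p under 0.05) in AAF/PH liver, placebo foci and rapamycin foci, with the median of the complex as a bar; n = 3 animals per group. Filled circles number 44 in AAF/PH liver, 2 in placebo foci and 5 in rapamycin foci, and Atp5if1 stands above 0 in all 3, at 0.49, 1.67 and 1.10.

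Atp5if1, the inhibitor that binds the catalytic head and stops it from splitting ATP when the proton gradient fails, ran against the rest of complex V. Its intensities were 308, 259 and 310 in normal liver, 444, 349 and 441 in AAF/PH liver, 832, 789 and 1213 in placebo foci and 828, 1032 and 286 in rapamycin foci. All AAF/PH animals lay above all normal animals and all placebo animals above all AAF/PH animals, while rapamycin animals 1 and 2 lay in the placebo range and rapamycin animal 3 in the normal range. The difference in AAF/PH liver was 0.49 ± 0.36 (limma adjusted p = 0.334) and was called with quantile normalization (1.01, adjusted p = 0.0053) and without rapamycin animal 3 in the fit (adjusted p = 0.046). It was also called with arrays scaled to a common interquartile range and with that range as a covariate. Leaving out any 1 animal of normal or AAF/PH liver did not give the call.

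The next comparison set persistent foci of placebo-treated rats against normal liver. In placebo foci Atp5if1 rose and Ndufv3 fell, and these were the only members called of 76, where 8.22% of all genes were called, 2.84% as higher and 5.38% as lower. Atp5if1 was 3.18-fold higher, a log2 difference of 1.67 ± 0.36 (limma adjusted p = 0.00825), and the call held in each of the 20 settings run, with adjusted p from 2.04e-07 to 0.0421. Ndufv3 was 2.37-fold lower, at -1.24 ± 0.26 (adjusted p = 0.00747), and missed the threshold only with arrays scaled to a common interquartile range (-0.61, adjusted p = 0.0693) among those settings. The second probe set of Ndufv3 gave a smaller difference in placebo foci, -0.62. The remaining 74 members were not called, although 69 of the 76 members were below normal liver on average. With arrays scaled to a common interquartile range 45 were below it, and 55 with that range as a covariate. The median was -0.60 against 0.04 over all genes, and -0.12 against -0.02 with arrays scaled to a common interquartile range. In 50 members every placebo animal lay below every normal animal and in 3 above, where 30.5% of all genes had groups that did not overlap, 15.7% as lower and 14.8% as higher.

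This count depended on rapamycin animal 3, which took no part in the comparison and entered through the shared estimate of the spread. Without it 42 members were called lower and 1 higher in placebo foci, where 11.7% and 5.28% of all genes were called. The same differences were then called in 22 of 32 members of complex I, 3 of 4 of complex II, 4 of 7 of complex III, 9 of 17 of complex IV and 4 of 16 of complex V. With arrays scaled to a common interquartile range, 0 members were called lower and 1, Atp5if1, higher, where 3.4% and 3.68% of all genes were called.

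The medians by complex in placebo foci were -0.73 for complex I, -0.71 for complex II, -0.55 for complex IV, -0.49 for complex III and -0.44 for complex V, of which those of complexes III and V turned to 0.10 and 0.11 with arrays scaled to a common interquartile range. Placebo animal 3 lay nearest to normal liver in every complex, with medians from -0.22 to -0.49, where animals 1 and 2 lay between -0.52 and -0.88. The largest falls of each complex by the test, besides Ndufv3, missed the threshold: Sdhd at -0.80 (adjusted p = 0.185), Uqcrfs1 at -0.99 (adjusted p = 0.0797), Ndufa4 at -1.25 (adjusted p = 0.119) and Atp5pd at -0.78 (adjusted p = 0.100). Atp5pd, a subunit of the peripheral stalk, was at 1097, 847 and 970 in normal liver, 537, 424 and 521 in AAF/PH liver, 513, 492 and 702 in placebo foci and 621, 616 and 284 in rapamycin foci. The 9 animals outside normal liver were all below it, and the difference in rapamycin foci was -1.02 ± 0.27 (adjusted p = 0.0370), or -0.64 without rapamycin animal 3 (adjusted p = 0.0551).

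**Figure D4:**
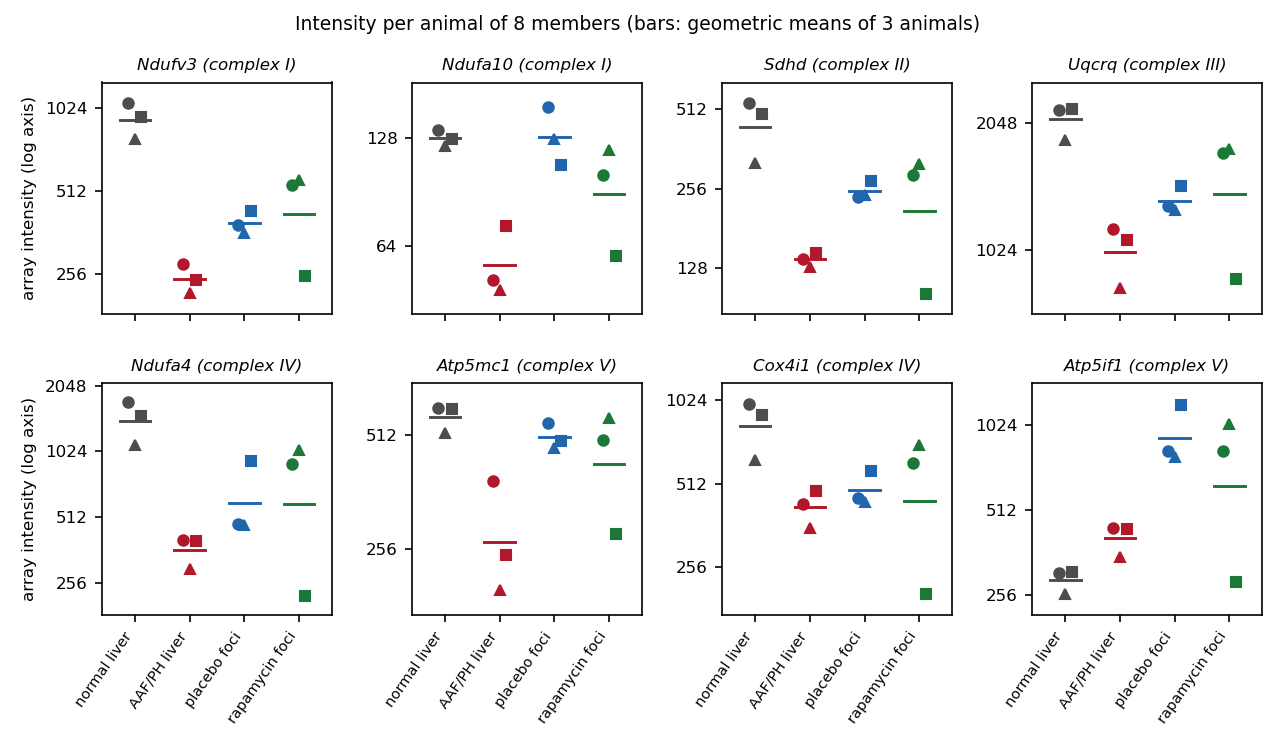
Array intensity (y axis, log scale) of 8 members in each animal by group; symbols give animal 1 (circle), 2 (triangle) and 3 (square), and bars the geometric mean of 3 animals. Ndufv3, Sdhd, Uqcrq and Ndufa4 are lowest in AAF/PH liver and rapamycin animal 3, Ndufa10 and Atp5mc1 are near normal in placebo foci, and Atp5if1 is at 789 to 1213 in placebo foci against 259 to 310 in normal liver; with arrays scaled to a common interquartile range the AAF/PH difference of Uqcrq turned to 0.14.

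Rapamycin foci against normal liver gave 5 members called lower (Ndufv3, Ndufa6, Ndufa1, Ndufb9 and Atp5pd) and 0 higher, where 6.53% of all genes were called, 4.93% as lower and 1.6% as higher. The median was -0.87, or -0.23 with arrays scaled to a common interquartile range. On average 71 members were below normal liver, or 52 with that scaling. In 43 members every rapamycin animal lay below every normal animal and in 1 above, where 29.7% of all genes did not overlap, 14.6% as lower and 15.1% as higher. The count of members called was 0 without normal animal 1 or normal animal 3, 14 without rapamycin animal 1 and 43 without rapamycin animal 2, where 1.55%, 1.96%, 5.95% and 14.1% of all genes were called. With arrays scaled to a common interquartile range none of the 5 was called lower and Atp5if1 was called higher, and with that range as a covariate Ndufv3 alone of the 5 stayed called. AAF/PH liver and both kinds of foci were each set against the same 3 normal animals, so their differences are not independent of each other. Ndufv3 was 2.19-fold lower, at -1.13 ± 0.26 (limma adjusted p = 0.0200), at -0.75 without rapamycin animal 3 (adjusted p = 0.0147) and at -0.24 with arrays scaled (adjusted p = 0.434). The second probe set of Ndufv3 gave a smaller difference in rapamycin foci, -0.37.

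Ndufa6, an accessory subunit near the quinone site, was at 960, 739 and 844 in normal liver, 334, 249 and 302 in AAF/PH liver, 378, 383 and 456 in placebo foci and 495, 514 and 174 in rapamycin foci, a difference of -1.25 in rapamycin foci (adjusted p = 0.0320) and -0.74 without animal 3 (adjusted p = 0.018). Ndufa1, a small membrane subunit needed for assembly, was at 810, 589 and 688 in normal liver, 222, 169 and 229 in AAF/PH liver, 273, 335 and 431 in placebo foci and 412, 431 and 128 in rapamycin foci, at -1.28 (adjusted p = 0.0495) and -0.71 without animal 3 (adjusted p = 0.0509). Ndufb9 was at 543, 440 and 480 in normal liver, 245, 185 and 262 in AAF/PH liver, 235, 238 and 279 in placebo foci and 312, 304 and 117 in rapamycin foci, at -1.12 (adjusted p = 0.0392) and -0.66 without animal 3 (adjusted p = 0.0394). In all 3 genes the rapamycin animals were below the normal range, with animal 3 far below the others. Calls in rapamycin foci were lost without normal animal 1 or normal animal 3 in all 5 genes, also without normal animal 2 in Ndufa1, Ndufb9 and Atp5pd, and without rapamycin animal 3 in Ndufa1 and Atp5pd.

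Without rapamycin animal 3 the median of the members in rapamycin foci moved from -0.87 to -0.33, 4 members of complex I were called lower (Ndufv3, Ndufa6, Ndufb6 and Ndufb9), of which 3 had been called with it. Atp5if1 was called higher, where 3.88% of all genes were called as lower and 2.79% as higher. Atp5if1 was at 1.10 ± 0.36 with that animal (limma adjusted p = 0.0781) and at 1.67 ± 0.21 without it (adjusted p = 4.22e-05), and with all 12 animals it was called after scaling to a common interquartile range (1.71) and after quantile normalization (1.49). By complex the medians with and without the animal were -0.99 and -0.51 in complex I, -0.996 and -0.44 in complex II, -0.69 and -0.25 in complex III, -0.70 and -0.26 in complex IV, and -0.70 and -0.23 in complex V. That of complex V turned to 0.15 with all animals and arrays scaled to a common interquartile range. With rapamycin animals 1 and 2 alone the medians of all 5 complexes thus stayed below the mean of normal liver. In complex V, however, rapamycin animal 2, at -0.11, lay above normal animal 2, at -0.16. The tests without rapamycin animal 3 called members lower in complex I only, and the call in complex V was Atp5if1, higher.

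**Figure D5:**
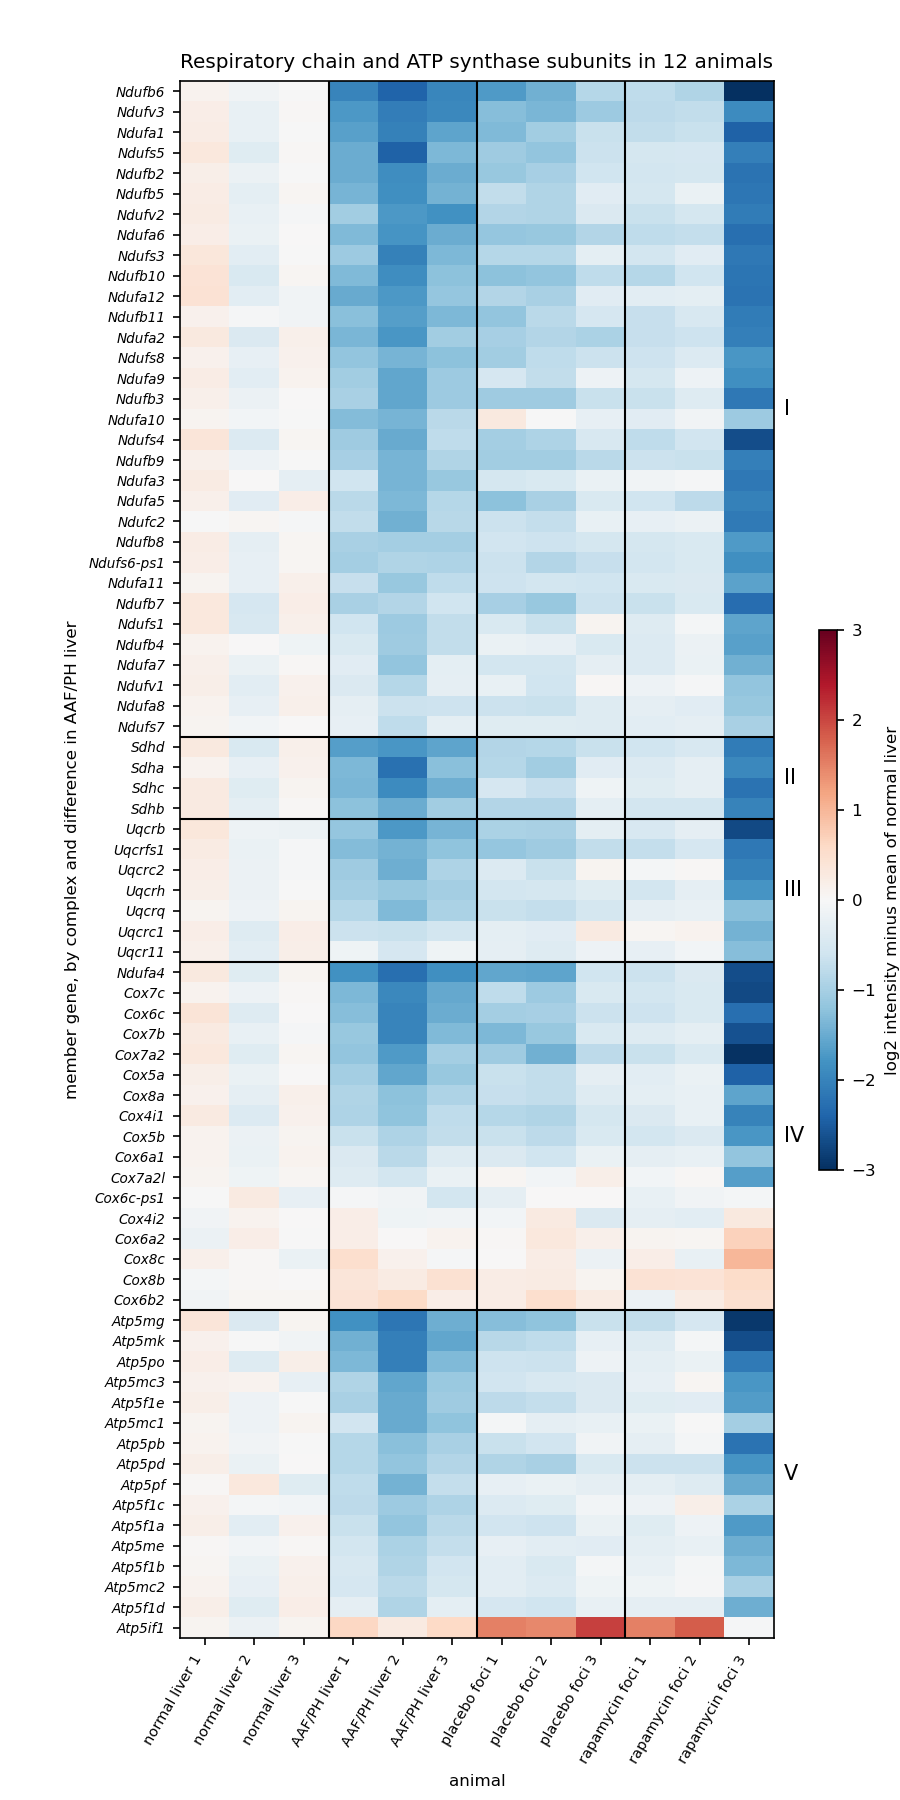
Log2 intensity minus the mean of normal liver for each of the 76 members (rows, by complex and by difference in AAF/PH liver) in 12 animals (columns); blue is lower and red higher than normal liver, and the scale ends at -3 and 3. AAF/PH liver and rapamycin animal 3 are blue in nearly all rows, the paralogues of other tissues at the foot of complex IV are pale, and Atp5if1 at the foot of complex V is red in placebo foci and in rapamycin animals 1 and 2; 4 members called lower in AAF/PH liver (Uqcrq, Cox8a, Ndufa11 and Atp5mc3) turned above 0 with arrays scaled to a common interquartile range.

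Rapamycin was compared with placebo in foci directly. None of the 76 members was called by limma, 0 had an unadjusted p under 0.05, and of all genes 0% were called. The members' differences ran from -0.61 to 0.31 with a median of -0.24, and without rapamycin animal 3 the median was 0.25 with 0 called, where 0.0207% of all genes were. The members with the largest test statistics were Ndufa10 at -0.53 ± 0.25 (adjusted p = 0.985) and Cox8b at 0.29 ± 0.15 (adjusted p = 0.985). Atp5if1 differed by -0.57 ± 0.36 with that animal (adjusted p = 0.985) and by 0.00 ± 0.21 without it (adjusted p = 0.999), where its standard error allows differences in either direction. No subunit was called between rapamycin and placebo foci, and the sign of the members' median turned with 1 animal.

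Foci were also set against AAF/PH liver. In placebo foci 69 of the 76 members were above AAF/PH liver on average, with a median of 0.46, and in 50 members every placebo animal was above every AAF/PH animal and in 0 below, where 25.7% of all genes had groups that did not overlap, 13% as higher and 12.8% as lower. Ndufa10 alone was called, 2.28-fold higher at 1.19 ± 0.25 (limma adjusted p = 0.0119), where 4.19% of all genes were called, 2.62% as higher and 1.57% as lower. Its adjusted p ranged from 2.15e-05 to 0.0749 over the other settings, and it missed the threshold without AAF/PH animal 1, AAF/PH animal 2 or placebo animal 1 (adjusted p = 0.0543, 0.0699 and 0.0749). Atp5if1 and Atp5mc1 were at 1.18 and 0.92 (adjusted p = 0.0863 and 0.0731). The median was 0.86 for complex II, 0.61 for complex V, 0.50 for complex III, 0.46 for complex I and 0.20 for complex IV. Without rapamycin animal 3 in the fit, 32 members were called higher and 0 lower, where 7.82% and 4.17% of all genes were called.

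Rapamycin foci against AAF/PH liver gave 0 members called by limma, 4 with an unadjusted p under 0.05, and a median of 0.23, where 4.01% of all genes were called, 2.14% as higher and 1.87% as lower. Ndufv3 was at 0.79 ± 0.26 (adjusted p = 0.135) and Ndufa10 at 0.66 ± 0.25 (adjusted p = 0.204). Without rapamycin animal 3 they were at 1.16 (adjusted p = 0.000182) and 0.95 (adjusted p = 0.00338), both called. Without rapamycin animal 3, 45 members were called higher and 0 lower, where 10.4% and 3.8% of all genes were called, and the median was 0.74, with 18 of 32 called in complex I, 4 of 4 in complex II, 6 of 7 in complex III, 7 of 17 in complex IV and 10 of 16 in complex V.

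Other genes of the mitochondrion were read from lists chosen for their roles, beside shares of all genes called lower of 12.5% in AAF/PH liver, 5.38% in placebo foci and 4.93% in rapamycin foci. For these lists and for the cell type markers, no values with arrays scaled to a common interquartile range are given. Among assembly factors in AAF/PH liver, 1 of 8 for complex I fell (Ecsit, -1.25), 3 of 15 for complex IV (Surf1, Cox20 and Higd2a), and 1 of 3 for complex V (Tmem70, -0.96). Of 8 for complexes II and III, Sdhaf3, which protects the iron-sulfur subunit of complex II during its maturation, fell by 1.72 on the log2 scale (adjusted p = 0.000172) and Sdhaf2, which helps attach its flavin, by 0.90, while Uqcc3 rose by 0.61. The medians of these 4 lists were -0.39, -0.42, -0.58 and -0.37, against 0.12 over all genes. Sdhaf3 also fell in placebo foci, by 1.25 (adjusted p = 0.00429), and in rapamycin foci, by 1.33 (adjusted p = 0.00592). It was at -1.05 without rapamycin animal 3, and was the only assembly factor called in foci in these fits.

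Among the electron carriers and the enzymes that feed them, 9 of 19 fell in AAF/PH liver and 0 rose, where 12.5% and 7.54% of all genes were called. Prodh, which passes electrons from proline to the quinone pool, fell by 2.88 on the log2 scale in AAF/PH liver, by 2.33 in placebo foci and by 1.84 in rapamycin foci. Without rapamycin animal 3 the last was -1.69. Etfb and Etfdh, which carry electrons from fatty acid oxidation, fell by 1.62 and 1.42 in AAF/PH liver and by 1.53 and 0.98 in placebo foci. In placebo foci 4 of 19 fell and 1, Coq4, a gene of coenzyme Q synthesis, rose by 0.53 (adjusted p = 0.0494), where 5.38% and 2.84% of all genes were called.

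Of 68 mitochondrial ribosomal proteins 21 fell in AAF/PH liver and 0 rose, where 12.5% of all genes fell, with a median of -0.65, and Mrpl14 had the smallest p, at -1.57. None of the 68 was called in placebo foci, and 2, Mrpl14 and Mrpl36, fell in rapamycin foci, of which Mrpl14 was still called without rapamycin animal 3. Of 19 regulators of mitochondrial biogenesis 6 fell in AAF/PH liver, among them the nuclear receptor Esrrg (-1.54), the mitochondrial DNA polymerase Polg (-1.26) and the transcription factor Tfb2m (-1.37), and 1, the related receptor Esrra, rose by 0.56. In the citric acid cycle Suclg2, Sucla2 and Idh3g fell, 3 of 13, and of 14 genes of import and the outer membrane Tomm7 fell.

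Markers of cell types also differed between the groups. The summed intensity of 8 hepatocyte markers was 25957 to 28325 in normal liver, 13983 to 15985 in AAF/PH liver, 18104 to 21327 in placebo foci and 15756 to 24814 in rapamycin foci, and 5 of the 8 fell in AAF/PH liver. Those 5 were Alb at -0.86, Ttr at -1.24, Hnf4a at -1.29, Apoa1 at -1.99 and Cyp2c11 at -7.00, while Cps1, Serpina1 and Tat were not called (0.08, -0.19 and 0.90). In placebo foci 3 of the 8 fell (Ttr, Cps1 and Cyp2c11) and in rapamycin foci 1 (Cyp2c11). The sum of 6 biliary and oval cell markers was 134 to 153 in normal liver, 414 to 603 in AAF/PH liver, 399 to 675 in placebo foci and 190 to 424 in rapamycin foci, with 4 of 6 higher in AAF/PH liver and in placebo foci. In rapamycin foci 2 of 6 were higher, and 4 of 6 without rapamycin animal 3, where 2.79% of all genes were called higher. The sum of 8 stellate cell and matrix markers was 596 to 801 in normal liver and 1673 to 4493 in AAF/PH liver, with 6 of 8 higher, and 722 to 961 in placebo foci. In AAF/PH liver macrophage, endothelial, lymphocyte and striated muscle markers had 1 of 6 higher, 1 of 4 lower, 1 of 3 higher and 1 of 5 higher. In placebo foci 1 of 6 macrophage markers (Marco) and 1 of 4 endothelial markers (Kdr) fell, and in rapamycin foci 3 of 6 (Marco, Cd163 and Clec4f) and 1 of 4 (Kdr). These macrophage and endothelial calls in rapamycin foci were the same without rapamycin animal 3. Of all genes 12.5%, 5.38% and 4.93% were called lower and 7.54%, 2.84% and 1.6% higher in AAF/PH liver, placebo foci and rapamycin foci. The part of cell types in the members' differences was not tested.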

How the data were processed

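The deposited matrix held array intensity values on a linear scale, which the authors made from 28826 probe sets of 14 arrays; Partek 6.6 and RMA are named in the submitters' processing notes, while other settings are not given in the sources used here. Values were taken to log2 with no pseudocount. Means of log2 values stood for rapamycin animal 3, which had 3 arrays. Genes were the 14497 symbols that stood alone on a probe set, at the probe set of highest mean; 10 members had 2 probe sets, and all 76 matched the genes of GRCr8.

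A single limma 3.58.1 fit in R 4.3.3 (data.table, version 1.17.8) held 4 groups of 3 animals, with 8 residual and 6.38 prior degrees of freedom. The 6 contrasts were tested on 2 sides, adjusted by Benjamini-Hochberg over 14497 genes and called at 0.05. With so few arrays, their number limits the precision. Labels do not say whether the rats of a group shared a batch, so p-values measure the spread between these animals. The fit was tested on simulated data. Figures used Python 3.11.15, numpy 2.4.6 and matplotlib 3.10.9.

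Values in every animal are given for the members of largest rise and fall by the test in each complex in AAF/PH liver and placebo foci, for paralogue pairs, and for the few members called or, with none called, of largest statistic in the other contrasts; of the context lists up to 4 genes of smallest p are named, and any others named where 5 or fewer were called. Members and lists were chosen with earlier results of these data known. Alternatives covered normalization, dim genes, probe sets, the arrays of rapamycin animal 3, array weights, the samples fitted and leaving out each animal; scaling to a common interquartile range, that range as a covariate, the fit without rapamycin animal 3 and complex IV without other tissues' paralogues were added after seeing the data.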

Additional observations from a re-analysis of the deposited data

How the results depend on the processing

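The values of 14 arrays limit the precision, and members at low intensities (the paralogues of other tissues) leave less room for a fall to be measured. The cause of each change given here was not tested, except that leaving out an animal also leaves fewer samples in the fit. Where a setting is not named below, the count of members called stayed within 1.5 times its value and the median of a complex within the spread between animals. Over the single genes named and all settings, direction and call were kept 705 times, a call was lost 64 times and gained 63 times, and a sign turned 32 times.

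With arrays scaled to a common interquartile range, the members called numbered 26 in AAF/PH liver, 1 in placebo foci and 1 in rapamycin foci against normal liver, and 6 in placebo foci and 3 in rapamycin foci against AAF/PH liver. The medians of complexes I to V then were -0.64, -0.88, -0.12, -0.045 and -0.13 in AAF/PH liver and -0.32, -0.25, 0.10, -0.0801 and 0.11 in placebo foci, with complexes III and V turned in placebo foci; those of III, IV and V were -0.00964, -0.0348 and 0.15 in rapamycin foci, with V turned, and 0.22, 0.00662 and 0.27 in placebo foci against AAF/PH liver. In AAF/PH liver Uqcrq (0.14), Cox6a1 (0.69), Cox8a (0.10) and Cox7a2l (0.40) turned, and in placebo foci Cox6a1 (0.33), Cox8a (0.0898) and Cox8c (-0.0801).

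With the interquartile range as a covariate the counts were 25, 8 and 2 against normal liver and 9 and 12 against AAF/PH liver, in the same order. The medians of I to V were -0.44, -0.68, -0.33, -0.24 and -0.42 in AAF/PH liver and -0.31, -0.21, -0.0716, -0.21 and 0.00202 in placebo foci, the last turned; those of II, IV and V were -0.21, -0.10 and -0.0456 in rapamycin foci, and those of I, II, III and V 0.20, 0.54, 0.21 and 0.30 in placebo foci against AAF/PH liver. Cox6a2 (-0.19), Cox7a2l (0.33) and Cox8c (-0.26) turned in AAF/PH liver, and Cox6a2 (-0.0116) and Cox8c (-0.26) in placebo foci.

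Quantile normalization gave 10 members called in placebo foci and 10 in rapamycin foci against normal liver, and 3 and 2 against AAF/PH liver. Its medians of I to V were -0.79, -1.14, -0.70, -0.44 and -0.55 in AAF/PH liver, those of I, III and V were -0.47, -0.30 and -0.24 in placebo foci, and those of III and V 0.27 and 0.40 in placebo foci against AAF/PH liver; Cox7a2l (0.0935) and Cox8c (-0.0226) turned in AAF/PH liver and Cox8c (-0.094) in placebo foci. Median centring moved complex IV to -0.97 in AAF/PH liver and turned Cox6a2 there (-0.0828), and Cox7a2l (-0.0558), Cox8c (-0.0873) and Ndufa10 (-0.0949) in placebo foci. Complex IV without the paralogues of other tissues and the pseudogene had medians of -1.23, -0.77 and, in placebo foci against AAF/PH liver, 0.43.

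Array weights, whose fit stopped before it converged, gave 72, 62 and 9 members called against normal liver and 16 and 16 against AAF/PH liver; Cox4i2 turned in AAF/PH liver (0.0481) and placebo foci (0.00167), and Cox7a2l in placebo foci (-0.0149). The fit without rapamycin animal 3 called 67 members in AAF/PH liver, 43 in placebo foci and 32 in placebo foci against AAF/PH liver. Fitting only the groups compared called 43 members in placebo foci, 0 in rapamycin foci and 26 in placebo foci against AAF/PH liver. In rapamycin foci against normal liver, a trend in the prior variance gave 3, the median over probe sets 3 and leaving out dim genes 8.

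With the replicate number as a block, 40 members were called in AAF/PH liver and 1 in rapamycin foci against normal liver, and Cox7b in AAF/PH liver missed the threshold (adjusted p = 0.0644); the labels give no pairing beyond the number. Correlations of the deviations of same-numbered animals of different groups ran from -0.68 to 0.38, and in 6 of 18 comparisons the best match had the same number. Those 6 were all of animals 2 and 3 among normal liver, AAF/PH liver and placebo foci, with correlations of 0.18 to 0.35. Whether animals of the same number shared a batch was not tested.

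The ranges given here leave out 1 animal at a time, taken only from the 2 groups compared. They therefore do not hold the fit without rapamycin animal 3 where that animal was in neither group. That fit called 67 members in AAF/PH liver, 43 in placebo foci and 32 in placebo foci against AAF/PH liver. Within the groups compared, the members called ranged from 16 to 39 in AAF/PH liver, 2 to 2 in placebo foci and 0 to 43 in rapamycin foci against normal liver. Against AAF/PH liver they ranged from 0 to 1 in placebo foci and 0 to 45 in rapamycin foci, and in rapamycin foci against placebo foci from 0 to 0. The medians of I to V ranged over -1.30 to -1.05, -1.74 to -1.35, -1.15 to -0.99, -0.87 to -0.70 and -1.06 to -0.86 in AAF/PH liver; -0.90 to -0.62, -0.88 to -0.59, -0.58 to -0.40, -0.70 to -0.46 and -0.54 to -0.36 in placebo foci; -1.30 to -0.51, -1.29 to -0.44, -1.05 to -0.25, -0.93 to -0.26 and -0.95 to -0.23 in rapamycin foci. They ranged over 0.34 to 0.57, 0.68 to 0.97, 0.34 to 0.59, 0.08 to 0.30 and 0.49 to 0.70 in placebo foci against AAF/PH liver, -0.07 to 0.75, 0.30 to 1.19, -0.10 to 0.70, -0.02 to 0.36 and 0.06 to 0.85 in rapamycin foci against AAF/PH liver, and -0.51 to 0.27, -0.57 to 0.20, -0.55 to 0.32, -0.41 to 0.25 and -0.53 to 0.21 in rapamycin foci against placebo foci. Of single genes whose sign turned in these fits, Cox4i2 ranged from -0.12 to 0.0526 in AAF/PH liver, and in placebo foci Cox4i2 ranged from -0.26 to 0.092, Ndufa10 from -0.13 to 0.14, Cox7a2l from -0.0162 to 0.11 and Cox8c from -0.082 to 0.12, all uncalled there.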
